A study of Mus musculus with 19 samples.

Results

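Sarm1, Nmnat1, Nmnat2, Nmnat3, Nampt, Map3k12, Map3k13, Mapk8ip3, Mapk10 and Atp8a2 encode proteins that decide whether an injured or stressed axon survives, together with enzymes that make the coenzyme NAD. They were chosen by symbol, as genes of axon degeneration and NAD metabolism, and each had 1 row among the 50559 genes of the count table. All 10 had enough counts to be among the 15572 genes tested. The study had named Sarm1, Atp8a2 and Mapk8ip3 as rhythmic in these same libraries, so their levels below are not independent evidence of a rhythm.

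SARM1 is an enzyme that destroys NAD in axons. It is held off by NAD itself and switched on when the NAD precursor nicotinamide mononucleotide accumulates, which happens when NMNAT2, the short-lived axonal enzyme that turns the precursor into NAD, is lost. Injury also activates the kinases DLK (Map3k12) and LZK (Map3k13), which act through c-Jun N-terminal kinases (JNK) and their scaffold proteins. In motor neurons, whose axons are the longest of the spinal cord, this programme governs how fast an axon breaks down after damage.

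The samples were spinal cords of 10-week-old male C57BL/6J mice that were wild-type for Bmal1 and carried ChAT-Cre and 1 RiboTag allele (ChAT-Cre;RiboTag fx/+). RiboTag puts a hemagglutinin tag on a ribosomal protein wherever Cre is active, here in all cells that express choline acetyltransferase, so motor neurons and other cholinergic neurons were recovered together. Animals were kept in 12 h of light and 12 h of dark, and spinal cords were collected every 4 h from ZT0 to ZT20 (Zeitgeber time, hours after lights on), with 3 biological replicates for each of the 6 time points. The 18 libraries of tag-precipitated RNA were accompanied by 1 library of pooled input, and no library of another genotype was analysed here.

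Library totals of the immunoprecipitates lay between 6302140 and 22406850 expected counts. Of the 7 markers of cholinergic neurons, 6 were enriched at least 2-fold over the input with all 18 immunoprecipitates above it, whereas 31 of 32 markers of 7 other cell types were depleted. Chat, the gene of the Cre driver, was the exception among the cholinergic markers, because its lowest library (8.36 CPM, counts relative to the TMM-scaled library size) fell under the input (12.6 CPM). The first principal component held 52.8% of the variance between libraries. ZT8 replicates 2 and 3 stood at its upper end, with scores of 42.6 and 29.7, whereas ZT8 replicate 1 had 5.03 and the other 15 libraries lay between -27.9 and 19.9. Scores differed between time points, from -22.3 to -8.29 at ZT0 and from 4.32 to 19.9 at ZT4. They ran from -12.4 to 8.33 at ZT12, from -27.9 to 2.81 at ZT16 and from -14.6 to 6.77 at ZT20. Results that rest on ZT8 are therefore given with and without single libraries.

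Sarm1, which encodes the NAD-destroying enzyme at the end of the programme, had its lowest means at ZT8 and ZT4 and its highest at ZT16. The gene lies on the minus strand of chr11:78470273-78497816 (GRCm38.p6), and its longest annotated transcript has 9 exons. Its TMM-scaled level was 89.1, 97.0 and 89.2 CPM at ZT0, 78.0, 63.4 and 79.9 CPM at ZT4 and 71.5, 75.6 and 73.7 CPM at ZT8. In the later time points it was 75.1, 73.8 and 86.6 CPM at ZT12, 97.1, 100.3 and 95.8 CPM at ZT16 and 99.2, 100.2 and 79.9 CPM at ZT20. The 3 libraries of ZT16 all lay above the 9 libraries of ZT4, ZT8 and ZT12, and the 3 libraries of ZT0 lay above those 9 as well. How many of all genes show such a separation was not counted, so here and below it only describes the values. The mean rose from 73.6 ± 2.04 CPM (SD, n = 3) at ZT8 to 97.7 ± 2.32 CPM at ZT16, a log2 difference of 0.41 ± 0.11 (SE, adjusted p = 0.0173, edgeR). The step down from ZT0 to ZT8 was -0.32 ± 0.11 and missed the threshold (adjusted p = 0.0507, edgeR).

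**Figure D1:**
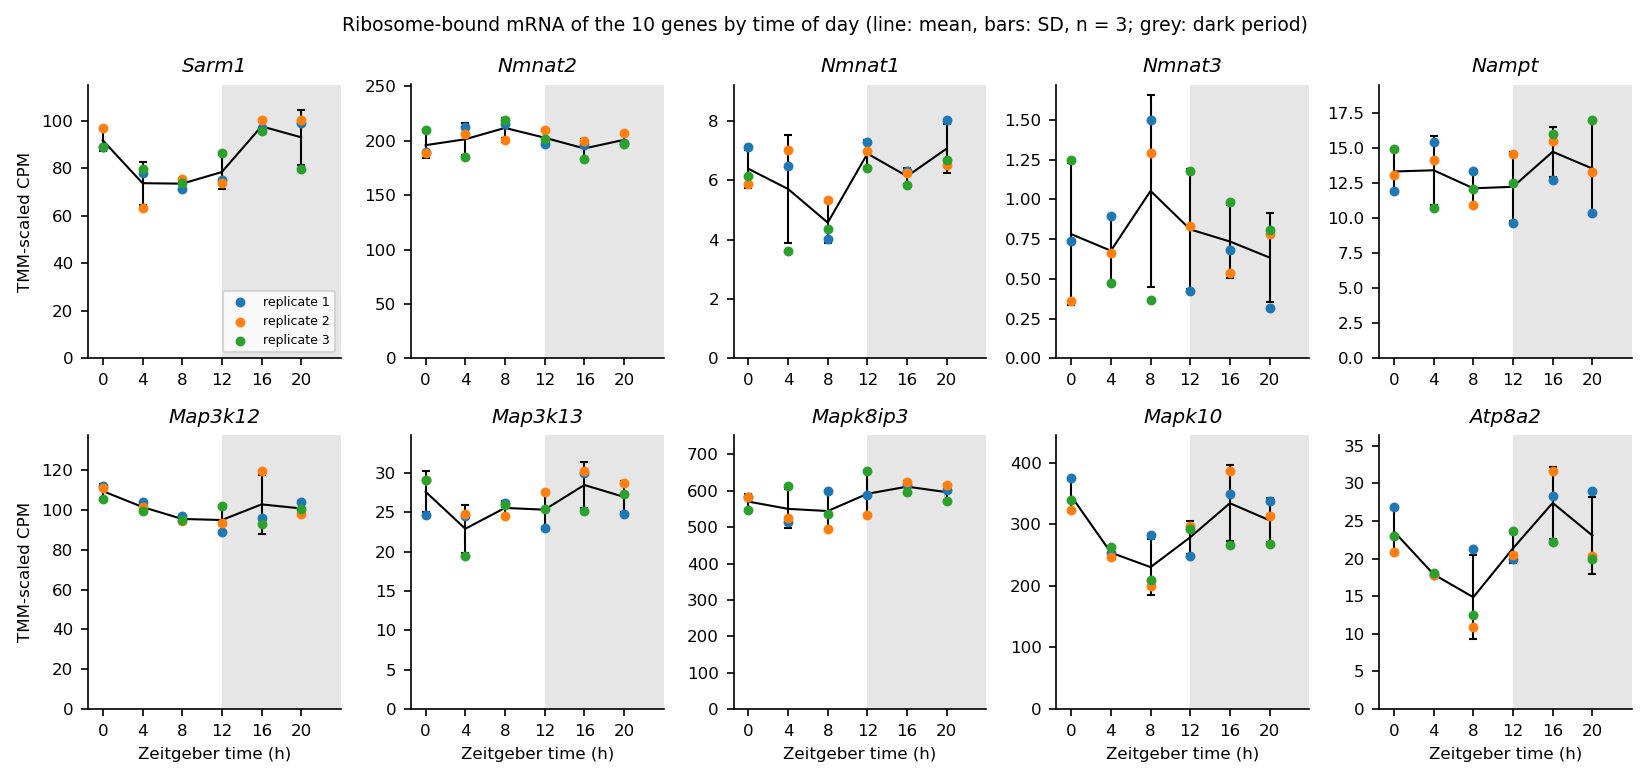
Level of each gene in TMM-scaled CPM (vertical axis, linear from 0) against Zeitgeber time in h, with 1 point per library coloured by replicate number, a line through the means and bars of 1 SD (n = 3); the dark period is grey. Sarm1, Mapk10 and Atp8a2 have their lowest mean at ZT8, while Nmnat2 stays between 183 and 219 CPM in all 18 libraries.

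A 24-h cosinor, which fits a cosine of free height and peak time to the 18 libraries, was passed by 972 genes or 6.24% of those tested, and by 3 of the 10 members. These were Sarm1, with an amplitude of 0.23 on the log2 scale and a peak at ZT19.1 (adjusted p = 0.0373, edgeR), Mapk10, with 0.26 at ZT19.7 (adjusted p = 0.0434), and Atp8a2, with 0.37 at ZT18.5 (adjusted p = 0.0455). With the period fixed at 24 h, all 3 fitted peaks fell in the dark period. The highest mean was at ZT16 for Sarm1 and Atp8a2 but at ZT0 for Mapk10. The other 7 members had adjusted p-values between 0.273 (Mapk8ip3) and 0.817 (Nmnat3). A test of any difference among the 6 time points was passed by 6.74% of all genes and by Sarm1 (adjusted p = 0.0437) and Mapk10 (adjusted p = 0.0447), with Atp8a2 just outside (adjusted p = 0.0637, edgeR).

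The adjusted p-values of the cosinor lay close to 0.05, and leaving out single libraries often moved them across it. The share of all genes passing each of these fits is not given here. Losses of a call below therefore cannot be set apart from shifts of all genes. Sarm1 passed in 9 of the 18 fits that left out 1 library. It was lost without ZT0 replicate 2, ZT4 replicate 2, ZT4 replicate 3, ZT8 replicate 2, ZT8 replicate 3, ZT12 replicate 1, ZT16 replicate 1, ZT16 replicate 2 or ZT20 replicate 1, where adjusted p lay between 0.0565 and 0.121 (edgeR). Mapk10 passed in 6 of the 18 fits, namely those without ZT8 replicate 1, ZT12 replicate 2, ZT12 replicate 3, ZT16 replicate 3, ZT20 replicate 2 or ZT20 replicate 3, and its adjusted p lay between 0.00876 and 0.134 over all 18. Atp8a2 passed in 5, those of Mapk10 less ZT12 replicate 2, and its adjusted p lay between 0.0121 and 0.130. The amplitude moved less, from 0.21 to 0.26 for Sarm1, from 0.23 to 0.31 for Mapk10 and from 0.30 to 0.42 for Atp8a2.

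**Figure D2:**
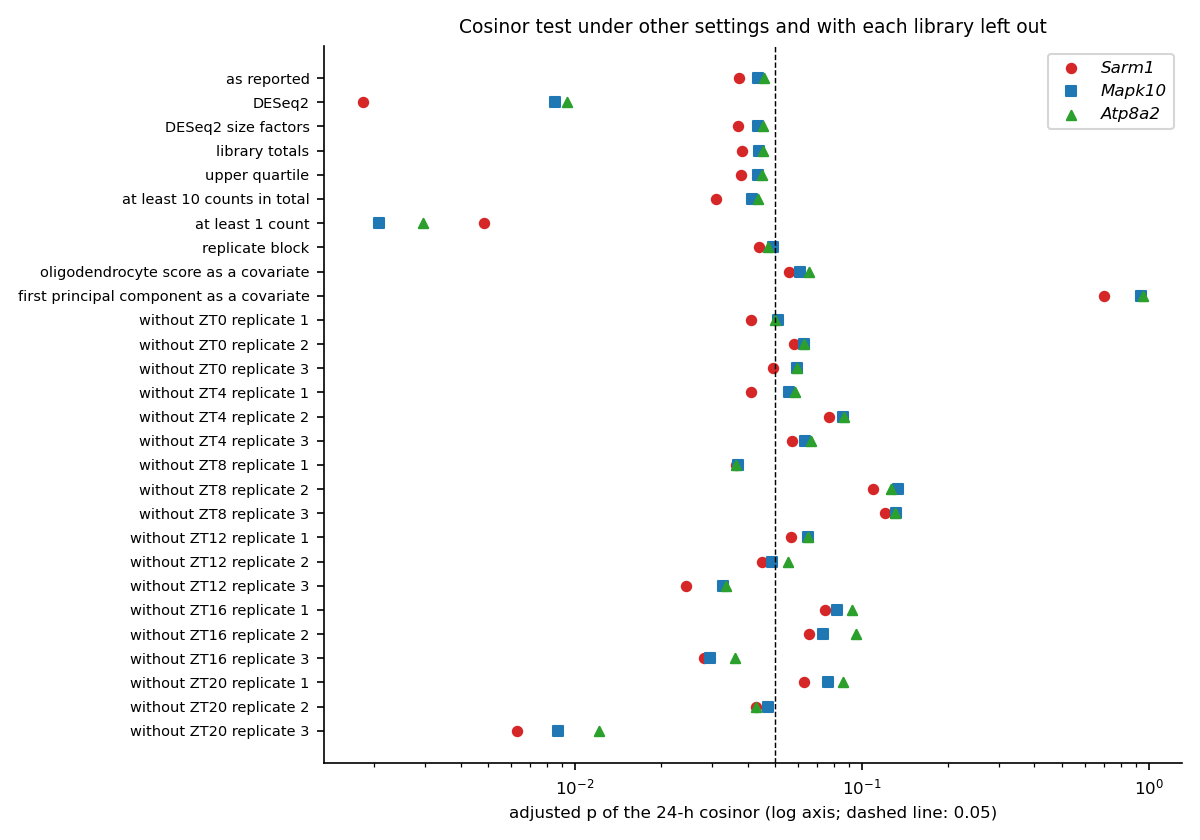
Adjusted p of the 24-h cosinor (horizontal log axis, dashed line at 0.05) for Sarm1, Mapk10 and Atp8a2 under each alternative setting and with each of the 18 libraries left out in turn. All 3 genes pass together under the 3 other scalings, both other count filters, the replicate block and DESeq2, and none passes with the oligodendrocyte score or the first principal component as a covariate or without ZT8 replicate 2 or ZT8 replicate 3. Shares of all genes are not shown, so these changes cannot be set apart from shifts of all genes.

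With the first principal component as a covariate, the cosinor amplitude was 0.17 for Sarm1, 0.04 for Mapk10 and 0.07 for Atp8a2, with adjusted p of 0.699, 0.940 and 0.956 (edgeR), and 0.0706% of all genes passed. The component came from the same libraries and differed between time points, so this fit cannot separate it from time of day. With the mean of 7 oligodendrocyte markers as a covariate the amplitudes were 0.24, 0.26 and 0.36, close to those above, whereas adjusted p was 0.0558, 0.0608 and 0.0657 and 0.0257% of all genes passed. JTK_Cycle, the rank test used by the study, was recoded here and called 0 of the 10 members after adjustment over all genes, against 6 genes or 0.0385% overall. Its lowest adjusted p among the members was 0.0947 for Sarm1. The study's own run called many more genes rhythmic in these libraries, Sarm1 among them. The recoded version merged equal cosine values and multiplied p by the number of cosines tried per gene before adjusting over all genes. The reason for the difference between the runs was not tested. Adjusted within the gene alone, 4 members passed against 15.8% of all genes, namely Sarm1 (p = 0.00192, exact), Mapk10 and Atp8a2 (p = 0.00799 each, exact) and Map3k12 (p = 0.0202, exact). The best period was 20 h for Sarm1, Mapk10 and Atp8a2, with peaks at 18, 18 and 16 h, and 24 h for Map3k12.

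The 3 enzymes that turn the precursor into NAD had adjusted cosinor p-values between 0.359 and 0.817 (edgeR). Nmnat2 (chr1:152954781-153119266, plus strand), the cytosolic and axonal form whose loss sets off SARM1, was 189.8, 188 and 209.7 CPM at ZT0, 213, 207 and 185 CPM at ZT4 and 216, 201 and 219 CPM at ZT8. It was 197, 210.4 and 201 CPM at ZT12, 196, 199.9 and 183 CPM at ZT16 and 198, 208 and 197 CPM at ZT20. The groups overlapped except that the 3 libraries of ZT8 lay above those of ZT16, and the coefficient of variation over all 18 libraries, 5.19%, was near that within a time point, 4.80%. Its difference between ZT16 and ZT8 was -0.13 ± 0.09 (log2, SE) and had an adjusted p of 0.307 (edgeR).

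Nmnat1 (chr4:149467569-149485210, minus strand), the nuclear form, had 7.12, 5.89 and 6.14 CPM at ZT0, 4.02, 5.34 and 4.36 CPM at ZT8 and 8.02, 6.50 and 6.68 CPM at ZT20. Its 3 libraries of ZT8 lay below the 12 of ZT0, ZT12, ZT16 and ZT20 and overlapped those of ZT4, which were 6.48, 7.01 and 3.63 CPM. The log2 difference was -0.48 ± 0.23 for ZT8 against ZT0 (adjusted p = 0.150) and 0.61 ± 0.23 for ZT20 against ZT8 (adjusted p = 0.125, edgeR). Nmnat1 had 23 to 159 counts per library, which left its SE larger than those of the abundant members. Nmnat3 (chr9:98287433-98420533, plus strand), the mitochondrial form, had only 2 to 27 counts per library and means between 0.635 ± 0.278 CPM at ZT20 and 1.05 ± 0.602 CPM at ZT8. A change of Nmnat3 over the day was not detectable at this depth, where the SE of its ZT16 to ZT8 difference was 0.66 on the log2 scale.

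Nampt (chr12:32820335-32853369, plus strand), which makes the precursor from nicotinamide and whose transcription is clock-controlled in liver, ranged from 9.66 to 17.0 CPM with a median of 13.2 CPM. Its means lay between 12.2 ± 1.23 CPM at ZT8 and 14.8 ± 1.79 CPM at ZT16, and libraries of 1 time point differed as much, such as 10.4, 13.3 and 17.0 CPM at ZT20. The difference between those 2 time points was 0.28 ± 0.19 on the log2 scale (adjusted p = 0.342, edgeR).

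Because Sarm1 and Nmnat2 act against each other, their expected counts were set against each other within each library, a ratio that no scaling between libraries can change. The ratio of Sarm1 to Nmnat2 was 0.332, 0.376 and 0.337 at ZT8 and 0.495, 0.502 and 0.524 at ZT16, with means of 0.348 ± 0.0241 and 0.507 ± 0.0149 (SD, n = 3). The 2 time points did not overlap. At ZT0 the mean was 0.470 ± 0.0447, at ZT4 0.369 ± 0.0629, at ZT12 0.387 ± 0.0401 and at ZT20 0.463 ± 0.0513. The ratio was chosen after the values of both genes were known and was not tested; it compares counts, not protein, and the transcripts differ in length.

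**Figure D3:**
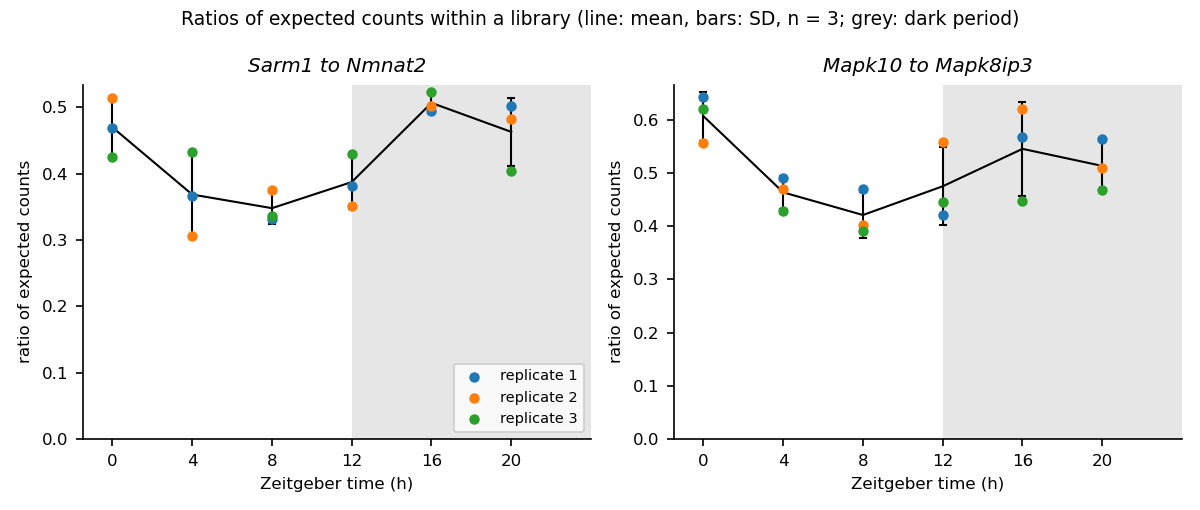
Ratio of expected counts within each library (vertical axis, linear from 0, no unit) against Zeitgeber time in h, for Sarm1 to Nmnat2 (left) and Mapk10 to Mapk8ip3 (right), with points for libraries, a line through means and bars of 1 SD (n = 3). Both ratios have their lowest mean at ZT8, 0.348 and 0.421.

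Among the stress kinases, Map3k12 (DLK, chr15:102497647-102517004, minus strand) was 112, 111 and 106 CPM at ZT0 and 97.2, 94.5 and 94.9 CPM at ZT8. At ZT16 it was 95.9, 119.7 and 92.9 CPM, where replicate 2 stood apart. The difference of ZT8 against ZT0 was -0.20 ± 0.10 on the log2 scale (adjusted p = 0.177, edgeR). Exons of Map3k12 overlap those of Pcbp2 on the opposite strand over 17.5% of their bases, so its value is less certain than those of the other kinases if counting ignored strand. Map3k13 (LZK, chr16:21824056-21933439, plus strand) ranged from 19.4 to 30.3 CPM with means between 22.9 ± 3.05 CPM at ZT4 and 28.5 ± 2.88 CPM at ZT16, and its cosinor had an adjusted p of 0.338 (edgeR).

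Mapk8ip3 (JIP3, chr17:24897506-24936977, minus strand), a JNK scaffold that also links cargo to axonal motor proteins, had the highest level of the members, also per kb of transcript. It was 599, 496 and 538 CPM at ZT8 and 616, 623 and 596 CPM at ZT16, and these groups overlapped. The log2 difference was 0.17 ± 0.09 (adjusted p = 0.240), and the cosinor amplitude was 0.08 (adjusted p = 0.273, edgeR). Exons of Eme2 on the same strand overlap 10.7% of its exonic bases, which counting by strand cannot separate. On the opposite strand, Mrps34 overlaps 8.99% and Nme3 3.96% of them, which matters if counting ignored strand.

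Mapk10 (JNK3, chr5:102908547-103212604, minus strand), the JNK found mainly in neurons, had 375, 323 and 339 CPM at ZT0, 253, 247 and 263 CPM at ZT4 and 282, 199 and 210.2 CPM at ZT8. It had 248, 297 and 292 CPM at ZT12, 349.6, 387 and 266 CPM at ZT16 and 338, 313 and 268 CPM at ZT20. All 3 libraries of ZT0 lay above all 6 of ZT4 and ZT8, while ZT16 overlapped ZT8 through replicate 3 of ZT16 and replicate 1 of ZT8. Mapk10 fell from ZT0 to ZT8 by 0.59 on the log2 scale (SE 0.14, adjusted p = 0.00952) and rose from ZT8 to ZT16 by 0.54 (SE 0.14, adjusted p = 0.0144, edgeR). In ratio to Mapk8ip3 within a library, Mapk10 had a mean of 0.607 ± 0.0458 at ZT0 and of 0.421 ± 0.0432 at ZT8 (SD, n = 3). The mean was 0.464 ± 0.0314 at ZT4, 0.475 ± 0.0731 at ZT12, 0.545 ± 0.0889 at ZT16 and 0.513 ± 0.0477 at ZT20. Replicate 3 of ZT16 (0.447) lay below replicate 1 of ZT8 (0.470), so these 2 time points overlapped. This ratio was not tested.

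Atp8a2 (chr14:59647531-60086914, minus strand) encodes a P4-ATPase, a flippase that keeps phosphatidylserine on the inner leaflet of the membrane and whose loss causes axon degeneration in mice. Its level was 26.8, 20.9 and 23.0 CPM at ZT0, 17.8, 17.8 and 18.1 CPM at ZT4 and 21.2, 10.9 and 12.5 CPM at ZT8. It was 19.997, 20.4 and 23.7 CPM at ZT12, 28.3, 31.7 and 22.3 CPM at ZT16 and 28.9, 20.4 and 19.9 CPM at ZT20. The 3 libraries of ZT16 lay above those of ZT8, by a small margin for ZT8 replicate 1. Atp8a2 fell from ZT0 to ZT8 by 0.67 on the log2 scale (SE 0.21, adjusted p = 0.0292) and rose from ZT8 to ZT16 by 0.89 (SE 0.21, adjusted p = 0.00922, edgeR), the largest change of any member between these time points that passed. A transcribed pseudogene, Gm19716, lies on the opposite strand over 13.5% of its exonic bases.

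Across the members, the differences that passed all involved ZT8. For ZT8 against ZT0, 18.0% of all genes passed (8.95% higher and 9.02% lower at ZT8), and 2 of 10 members passed, both lower (Mapk10 and Atp8a2), with a median over the members of -0.17 on the log2 scale against 0.00 for all genes. For ZT16 against ZT8, 16.9% passed (9.11% higher and 7.80% lower at ZT16), and 3 of 10 members passed, all higher (Sarm1, Mapk10 and Atp8a2), with a median of 0.23 against 0.00. For ZT20 against ZT8, 0.00% of genes and 0 members passed in edgeR, while 4 members had an unadjusted p under 0.05 (Sarm1, Nmnat1, Mapk10 and Atp8a2), as did 22.3% of all genes. DESeq2 called Sarm1, Mapk10 and Atp8a2 in that pair, at adjusted p of 0.0461, 0.0470 and 0.0434, and 7.21% of all genes. These pairs share the ZT8 libraries, so they are not separate evidence. No member passed in the other 12 pairs (edgeR), where up to 4 members had an unadjusted p under 0.05 and where genes passed in ZT12 against ZT0 (0.0321%) and ZT16 against ZT4 (0.0642%) alone. Differences from ZT4 were of like size for Sarm1, which differed by 0.41 ± 0.11 on the log2 scale for ZT16 against ZT4 (adjusted p = 0.0927) and by -0.32 ± 0.11 for ZT4 against ZT0 (adjusted p = 0.131, edgeR), with 0.00 ± 0.11 between ZT8 and ZT4. For ZT16 against ZT4, Mapk10 differed by 0.40 ± 0.14 and Atp8a2 by 0.62 ± 0.21. In that pair 4 members had an unadjusted p under 0.05, against 20.3% of all genes.

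**Figure D4:**
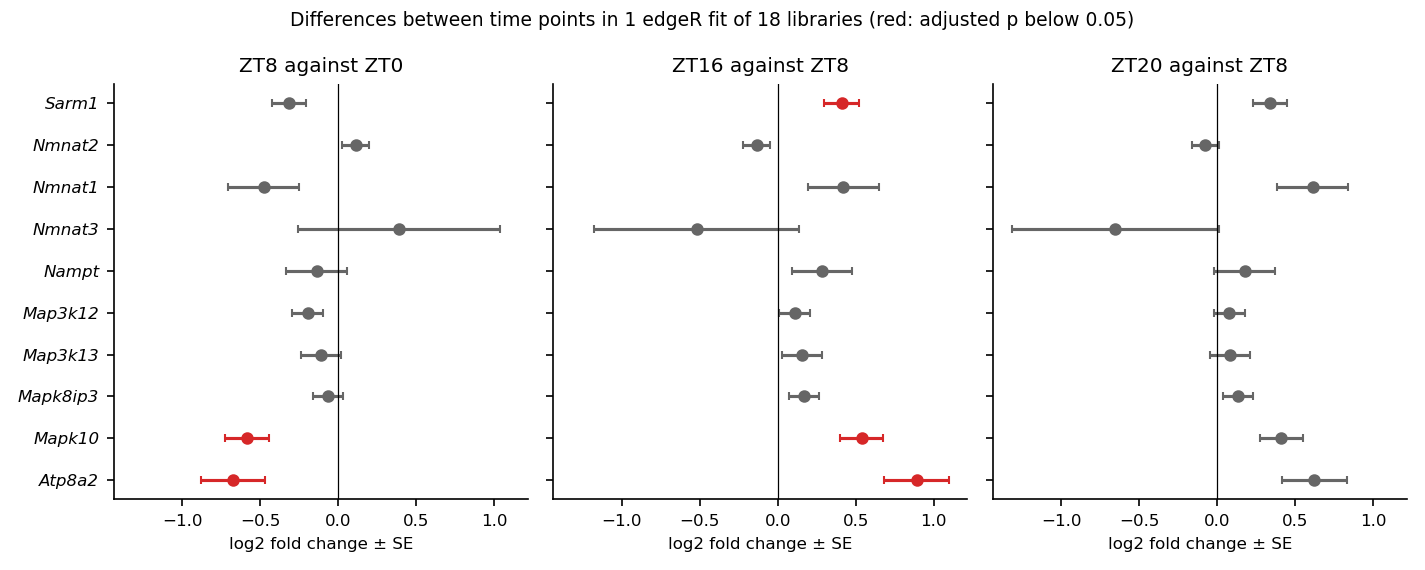
Log2 fold change (horizontal axis, bars of 1 SE) of each gene for ZT8 against ZT0, ZT16 against ZT8 and ZT20 against ZT8, from 1 edgeR fit of 18 libraries, with differences of adjusted p under 0.05 in red. Mapk10 and Atp8a2 lie left of 0 in the first panel and, with Sarm1, right of 0 in the second, whereas Nmnat2 stays between -0.13 and 0.11 in all 3.

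The calls between pairs of time points changed when single libraries of ZT0, ZT8 or ZT16 were left out, while the differences kept their sign. How many of all genes passed in these fits is not given here. A changed call therefore cannot be set apart from a shift of all genes. Over the 18 fits that left out 1 library, the log2 difference of ZT16 against ZT8 ran from 0.39 to 0.44 for Sarm1, from 0.42 to 0.72 for Mapk10 and from 0.71 to 1.25 for Atp8a2. That of ZT8 against ZT0 ran from -0.77 to -0.50 for Mapk10 and from -1.04 to -0.50 for Atp8a2. Without ZT8 replicate 2, 0 of the members passed for ZT8 against ZT0 (edgeR), with adjusted p of 0.0708 for Mapk10 and 0.167 for Atp8a2, and 0 passed for ZT16 against ZT8, with adjusted p of 0.0674 for Sarm1, 0.0950 for Mapk10 and 0.0702 for Atp8a2. For ZT16 against ZT8, adjusted p without ZT8 replicate 3 was 0.0602 for Sarm1, 0.0710 for Mapk10 and 0.0504 for Atp8a2, and without ZT16 replicate 2 it was 0.0825, 0.104 and 0.0689. Without ZT16 replicate 1, Atp8a2 alone passed that pair, Sarm1 being at 0.0552 and Mapk10 at 0.0592. For ZT8 against ZT0, Mapk10 was at 0.0560 without ZT0 replicate 1, and Atp8a2 was at 0.133, 0.0722 and 0.123 without ZT0 replicate 1, ZT0 replicate 3 and ZT8 replicate 3. Leaving out ZT8 replicate 1 moved the other way: Mapk10 then passed for ZT20 against ZT8 at 0.00802 and Atp8a2 at 0.00284 (edgeR), the latter with a difference of 0.97 on the log2 scale.

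Most markers of cholinergic neurons differed between the same time points. Of 7 markers, 4 were lower at ZT8 than at ZT0 and 5 were higher at ZT16 than at ZT8, with medians of -0.64 and 0.59 on the log2 scale. Chat differed by -1.74 ± 0.43 (SE) and 1.77 ± 0.43, and Slc18a3, the vesicular acetylcholine transporter, by -0.92 ± 0.23 and 0.95 ± 0.23. Summed over the 7 markers, of which none was at 0 in all libraries, the level ran from 4295 to 4768 CPM in the libraries of ZT0, from 4230 to 4685 CPM in those of ZT8 and from 4623 to 5027 CPM in those of ZT16. Prph, the most abundant of the markers, differed by 0.32 ± 0.11 and -0.19 ± 0.11, and Mnx1, a motor neuron transcription factor, by 0.10 ± 0.12 and -0.08 ± 0.12, none of which passed. The sum of oligodendrocyte markers ran from 1827 to 2207 CPM, from 1744 to 2002 CPM and from 1932 to 2887 CPM at these times, and 1 of 7 (Mbp) was lower at ZT8 and higher at ZT16. For astrocyte markers it ran from 165 to 185 CPM, from 131 to 165 CPM and from 162 to 203 CPM, and 0 of 6 passed (edgeR, 1 at an unadjusted p in each pair, 1 by DESeq2 for ZT16 against ZT8). Of the inhibitory neuron markers Gad2 and Slc32a1 were lower at ZT8 than at ZT0, and the microglial Cx3cr1 was higher at ZT8 than at either time. The part of these marker differences, of the first principal component and of library composition in the members' results was not tested. In such bulk libraries, fewer cells of a type cannot be told apart from less RNA per cell.

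Compared with the pooled input, Sarm1 stood out among the members. Enrichment required a mean level 2-fold or more above the input and every one of the 18 immunoprecipitates above it, and depletion the reverse, which 15.2% and 24.3% of 16828 genes met. There was 1 input library, so no test was made, and CPM in this comparison were scaled over all 19 libraries. Sarm1 was the 1 enriched member, with 85.8 ± 11.9 CPM (SD, n = 18) in the immunoprecipitates and 25.3 CPM in the input (95% Poisson interval 23.1 to 27.7, counting error only), a log2 ratio of 1.76. Nampt and Nmnat3 were the 2 depleted members. Nampt had 13.4 ± 2.12 CPM against 34.4 CPM (interval 31.8 to 37.2), a log2 ratio of -1.36, and Nmnat3 had 0.793 ± 0.355 CPM against 1.83 CPM (interval 1.28 to 2.55), a log2 ratio of -1.21.

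The other 7 members lay between these. Mapk8ip3 (log2 ratio 0.77), Map3k12 (0.61) and Nmnat2 (0.55) were above the input in 18 of 18 libraries without reaching 2-fold. Nmnat1 (0.59), Mapk10 (0.44), Atp8a2 (0.31) and Map3k13 (0.26) were below the input in 1 or 2 libraries. For Atp8a2 the lowest immunoprecipitate, 11.0 CPM, was from ZT8 and the input held 17.4 CPM. With library totals in place of TMM, the median log2 ratio of all genes moved from -0.08 to -0.43, and Map3k13 (-0.09) and Atp8a2 (-0.03) changed sign while Sarm1 (1.42), Nampt (-1.70) and Nmnat3 (-1.55) kept theirs.

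**Figure D5:**
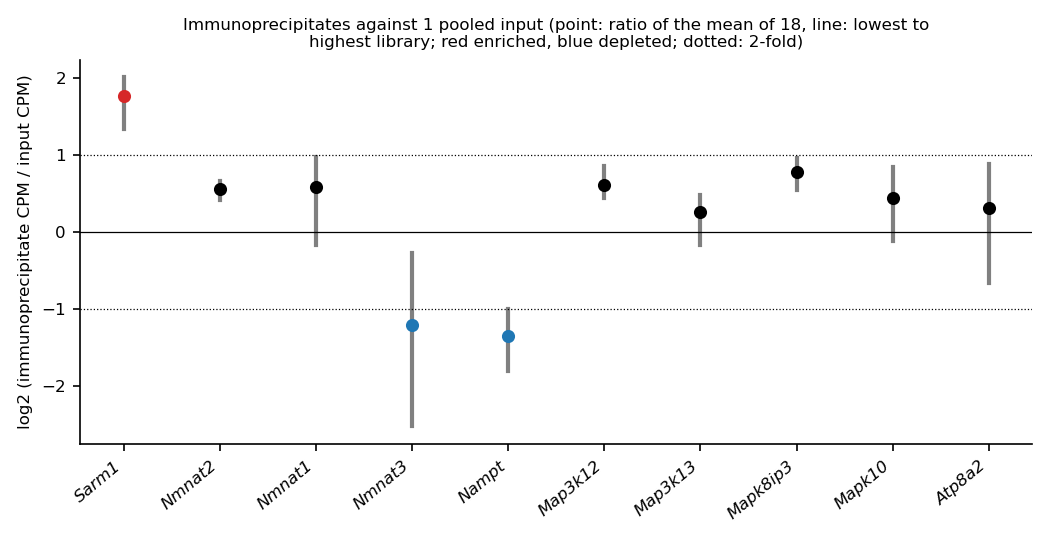
Log2 ratio of immunoprecipitate to pooled input (vertical axis) for each gene, with a point for the ratio of the mean of 18 libraries and a line from the lowest to the highest library; red is enriched, blue is depleted and dotted lines mark 2-fold. Sarm1 (1.76) is the 1 point above the upper line, and Nampt (-1.36) and Nmnat3 (-1.21) are below the lower line.

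Levels of different genes were compared as mean CPM per kb of the longest annotated transcript, over 18 libraries. On this scale Mapk8ip3 led with 103 ± 7.70 CPM per kb (SD), followed by Nmnat2 with 43.4 ± 2.26 and Mapk10 with 40.5 ± 7.38, which did not differ beyond their spread. Map3k12 had 19.5 ± 1.48 and Sarm1 17.4 ± 2.39 CPM per kb, again within their spread. Map3k13 (3.05 ± 0.318), Nampt (2.93 ± 0.462), Nmnat1 (2.31 ± 0.435) and Atp8a2 (1.66 ± 0.413) formed a low group in which neighbours overlapped, and Nmnat3 was lowest with 0.361 ± 0.162. Per kb, DLK mRNA was thus more abundant than LZK mRNA, and Nmnat2 more abundant than Nmnat1 and Nmnat3. Of the other JNK genes, Mapk9 had 87.3 ± 5.98 and Mapk8 10.5 ± 1.34 CPM per kb.

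Promoter windows of 250 bases before each annotated start were available from RefSeq (GRCm38.p6) for 9 members (12 windows), with Atp8a2 the member not among them. They were searched on both strands for the E-box CACGTG, the D-box TTANGTAA, the ROR element core TAGGTCA, the cAMP element TGACGTCA and the AP-1 site TGANTCA, which occurred in 6.02%, 2.06%, 2.23%, 1.55% and 6.75% of 32851 windows. The windows of the members held 1 E-box, 136 bases before the second start of Map3k12, and 1 cAMP element, 29 bases before the first start of Mapk10. The stretch before the start of Sarm1 held none of them. These 3 stretches are shown because they belong to the members that led in the cosinor with a window, and to the 1 with an E-box; they are given 5′ to 3′ on the strand of the gene (minus in all 3), exonic bases and, for Sarm1, bases inside the RefSeq gene left out, with a motif in capitals. The Mapk10 stretch lies before all GENCODE transcripts of the gene but inside its longer RefSeq span, and the Map3k12 stretch lies in an intron of longer GENCODE transcripts.
Sarm1, chr11:78497817-78498004: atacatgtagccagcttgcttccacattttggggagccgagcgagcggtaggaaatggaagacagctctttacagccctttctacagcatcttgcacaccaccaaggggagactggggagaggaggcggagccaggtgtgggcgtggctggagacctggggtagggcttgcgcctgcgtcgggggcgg
Mapk10, first start, chr5:103211335-103211584: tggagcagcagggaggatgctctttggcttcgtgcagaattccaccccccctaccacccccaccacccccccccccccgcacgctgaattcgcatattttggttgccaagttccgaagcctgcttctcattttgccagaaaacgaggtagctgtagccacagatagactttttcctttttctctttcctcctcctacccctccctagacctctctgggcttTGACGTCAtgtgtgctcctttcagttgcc
Map3k12, second start, chr15:102510793-102510950: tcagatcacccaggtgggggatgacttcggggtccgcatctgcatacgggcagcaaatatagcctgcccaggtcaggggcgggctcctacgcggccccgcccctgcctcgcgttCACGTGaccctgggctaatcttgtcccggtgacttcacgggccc
A match of letters describes the window and is no evidence that a factor binds there.

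Genes around the members in the same pathways were read from fixed lists, whose counts stand beside those of all genes tested. Of all genes, 6.24% passed the cosinor, 8.95% were higher and 9.02% lower at ZT8 than at ZT0, and 9.11% were higher and 7.80% lower at ZT16 than at ZT8 (edgeR). By DESeq2, 14.8% passed the cosinor and 21.7% and 20.6% passed these pairs in either direction. An unadjusted p under 0.05 was found in 26.7%, 31.6% and 31.0% of all genes (edgeR).

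For NAD synthesis, 6 of 11 genes were tested, and 1 passed the cosinor, 1 was higher and 0 were lower at ZT8 than at ZT0 (edgeR, 2 at an unadjusted p under 0.05, 1 by DESeq2), and 0 were higher and 1 was lower at ZT16 than at ZT8. The 1 gene was Slc25a51, the mitochondrial NAD carrier, which peaked in the light (cosinor adjusted p = 0.0401) and differed by 0.38 ± 0.11 (SE) and -0.43 ± 0.11 on the log2 scale, opposite in sign to Sarm1. Median differences of the list were 0.20 and 0.03. For NAD use, 14 of 16 genes were tested and 4 passed the cosinor (6 at an unadjusted p, 5 by DESeq2). These were Sirt7, Sirt2, Sirt6 and Sirt3, all deacylases that consume NAD. Sirt2, Sirt6 and Sirt3 peaked at ZT19.0, ZT18.1 and ZT20.3, whereas Sirt7 peaked in the light at ZT9.61. In the list, 4 genes were lower at ZT8 than at ZT0 and 4 were higher at ZT16 than at ZT8, with medians of -0.37 and 0.26. Sirt7 went the other way, by 0.42 ± 0.16 and -0.24 ± 0.16, and passed neither pair (adjusted p = 0.0810 and 0.350, edgeR). DESeq2 called 6 and 4 in these pairs, and 7 and 5 had an unadjusted p under 0.05 (edgeR). The 4 in both pairs were Sirt2, Sirt3, Sirt6 and Parp1. Sirt2 differed by -1.51 ± 0.33 and 1.47 ± 0.33 and Sirt3, the mitochondrial form, by -0.91 ± 0.19 and 0.75 ± 0.19. Sirt2 and Sirt6 were themselves depleted against the input, with log2 ratios of -1.84 and -1.21, whereas Sirt3 (-0.66) was neither.

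For axon survival and degeneration, 15 of 16 listed symbols were tested (the other was an older symbol of Skp1), 2 passed the cosinor (6 at an unadjusted p, 4 by DESeq2), and 4 were higher and 3 lower at ZT8 than at ZT0. At ZT16 against ZT8, 2 were higher and 4 lower. DESeq2 called 9 and 6 in these pairs, and 10 and 9 had an unadjusted p under 0.05 (edgeR). Bcl2l1, a survival factor of the BCL2 family, was higher at ZT8 (cosinor adjusted p = 0.0430, edgeR), with differences of 0.65 ± 0.13 and -0.59 ± 0.13 on the log2 scale, and so was Bax, its cell death counterpart (0.53 ± 0.14 and -0.54 ± 0.14). Mycbp2, the ubiquitin ligase that removes NMNAT2 and DLK, was also higher at ZT8 (0.48 ± 0.15 and -0.50 ± 0.15). Capn2, a calpain that cuts neurofilaments, was lower at ZT8 (-0.69 ± 0.16 and 0.57 ± 0.16, cosinor adjusted p = 0.0492). Members of the list thus differed in both directions, and its medians were 0.18 and -0.12.

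In DLK-JNK signalling, all 17 genes were tested and 1 passed the cosinor, Atf3, an injury-induced transcription factor with a mean of 3.14 CPM (adjusted p = 0.0409, edgeR), while DESeq2 called 3 and 7 had an unadjusted p under 0.05 in edgeR. Each pair was passed by 2 genes, Mapk8ip1 and Mapk8 (3 and 4 by DESeq2, 9 and 6 at an unadjusted p). Mapk8ip1 (JIP1) was lower at ZT8 and higher at ZT16, by -0.45 ± 0.12 and 0.49 ± 0.12 on the log2 scale, in the direction of Mapk10. Mapk8 (JNK1) went the other way, with 0.36 ± 0.10 and -0.40 ± 0.10. Jun had a cosinor adjusted p of 0.0663 and Mink1 of 0.0948. Medians of the list were 0.02 and 0.11. Of the 11 tested among 14 P4-ATPase and subunit genes other than Atp8a2, 0 passed the cosinor (0 at an unadjusted p under 0.05) and 0 passed either pair in edgeR or DESeq2 (1 at an unadjusted p in each pair, edgeR). Atp8a1, the closest relative of Atp8a2, differed by 0.18 ± 0.09 and -0.13 ± 0.09, where Atp8a2 had -0.67 and 0.89. Medians were 0.07 and -0.02.

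The genes whose profile over the 18 libraries was most like that of Sarm1, among 9213 candidates, were Hspb8, Mknk2, Ap2m1, Angel1 and Abca3, with root mean square differences of centred log2 CPM from 0.10 to 0.11 against a median of 0.28. For Atp8a2 they were Grin1, Sh3glb2, Syngr1, Tubg1 and Ap3b2, with 0.12 to 0.13 against a median of 0.41. The likeness is a description of shared libraries and carries no test.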

How the data were processed

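Paired-end reads of stranded libraries had been aligned by the authors to mm10 with STAR 2.7.5 and counted per gene with RSEM. The deposited table holds expected counts that the authors had not normalized. Whether RSEM used strand is not given in the sources used here. The members, lists and tests were chosen with earlier results of these data known.

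Counts were rounded, filtered with filterByExpr and scaled by TMM in edgeR 4.0.16 (R 4.3.3). Log2 CPM carried a prior count of 2. Quasi-likelihood tests over 18 libraries gave a 24-h cosinor, a test of the 6 time points and all 15 pairs from 1 fit, with Benjamini-Hochberg adjustment over 15572 genes at 0.05. JTK_Cycle was recoded with periods of 20, 24 and 28 h. Equal cosine values were merged, and p was multiplied by the number of cosines tried per gene before the adjustment over all genes. The edgeR tests were checked on simulated data, with 100 genes changed at each amplitude. At a log2 amplitude of 0.3 the cosinor called 46% of them and the time-point test 27%. At 0.6 they called 87% and 83%. Failing to pass therefore does not exclude a rhythm of amplitude 0.3 or less. No 2 replicates of a time point agreed within sampling noise (lowest chi-square per degree of freedom 5.47).

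All 10 members are named. From each list, up to 4 genes with the smallest cosinor p are named; other list and marker genes named for a pair were chosen after their values were seen. For Sarm1 and Atp8a2 the 5 genes of most similar profile are named. Marker lists covered 8 cell types. Gene loci, overlaps and lengths are from RefSeq and GENCODE on GRCm38. Alternatives were other scalings, count filters, DESeq2 1.42.0, covariates, a replicate block and left-out libraries.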

Additional observations from a re-analysis of the deposited data

How the results depend on the processing

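Counts of members that passed are given here against those reported. With the first principal component as a covariate, 0 passed in the cosinor, the time-point test, ZT8 against ZT0, ZT16 against ZT8 and any of the 15 pairs, in place of 3, 2, 2, 3 and 3. Of all genes, 0.0706% then passed the cosinor, and the component itself differed between time points. With the oligodendrocyte score, 0 passed in the cosinor, against 0.0257% of all genes. Fitting the 6 libraries of a pair alone left 1 for ZT8 against ZT0 and 0 for ZT16 against ZT8. For ZT20 against ZT8, 2 passed with a filter of at least 1 count and 3 with DESeq2, in place of 0. In that pair DESeq2 called 7.21% of all genes. JTK_Cycle adjusted within the gene alone called 4 in place of 0, against 15.8% of all genes. At 1.5-fold in place of 2-fold, 5 in place of 3 members were enriched or depleted, Map3k12 and Mapk8ip3 being added. Among all 16828 genes, 3911 were then enriched and 5125 depleted, in place of 2554 and 4091. The other planned scalings and filters left these counts within 1.5 times. Where no share of all genes stands beside a setting, its count of members cannot be set apart from a shift of all genes. This holds for the pair-alone fits, the filter of at least 1 count and these other scalings and filters.

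Leaving out 1 library or 1 replicate number gave 0 to 3 members for the cosinor, 0 to 3 for the time-point test, 0 to 3 for ZT8 against ZT0, 0 to 3 for ZT16 against ZT8, 0 to 2 for ZT20 against ZT8, 0 to 3 for any pair and 0 to 1 for JTK_Cycle. The JTK_Cycle call was Sarm1 without ZT16 replicate 3, where 752 of 16088 genes passed, against 6 of 15572 with all libraries. Shares of all genes in the other fits are not given here, so these ranges cannot be set apart from shifts of all genes. Signs changed only in values that had not passed, except for Mapk10 and Atp8a2 with the first principal component. Over the fits that left out libraries, the amplitude of Nampt ran from 0.035 to 0.22 with a peak over 6 h away without replicate 3, and log2 differences ran from -0.019 to 0.40 for Nampt (ZT20 against ZT8), from -0.11 to 1.302 for Nmnat3 (ZT8 against ZT0) and from -0.020 to 0.18 for Map3k12 (ZT16 against ZT8). With the first principal component, they turned to 0.016 for Map3k13, 0.11 for Mapk8ip3 and 0.11 for Atp8a2 (ZT8 against ZT0), to -0.077 for Map3k12 and -0.029 for Mapk10 (ZT16 against ZT8), and to -0.062 for Map3k12, -0.0062 for Map3k13 and -0.011 for Mapk10 (ZT20 against ZT8). The cause was not tested.

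Deviations of libraries with the same replicate number correlated between -0.151 and 0.176 over 45 pairs of libraries, 4 of them above 0.1. Those with different numbers correlated between -0.210 and 0.183 over 90 pairs, 9 of them above 0.1. By this measure replicate numbers did not pair the samples. With the replicate block, 3 members passed the cosinor, as without it (edgeR). For ZT8 against ZT0, ZT16 against ZT8 and ZT20 against ZT8, 2, 3 and 0 passed, also as without it. Shares of all genes are not given for these edgeR fits. JTK_Cycle with the block called 356 of 15572 genes, in place of 6. Its adjusted p was then 0.0545 for Sarm1 and for Mapk10, in place of 0.0947 and 0.129, so neither passed. Depth limits Nmnat3 most, with 2 to 27 counts per library.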
